A study of Mus musculus with 6 samples.

Results

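The genes that flank *Pla2g4e* on mouse chromosome 2 were examined in the prefrontal cortex of mice carrying a targeted allele of that gene. A gene was taken when the span listed for it in the count tables overlapped 114996893 to 125075816 of chromosome 2 (GRCm39), that is *Pla2g4e* and 5 Mb on either side, and when at least 1 library held 6 or more fragments (read pairs) of it. The Pla2g4 genes themselves were left out. The rule gave 118 genes of the 19084 genes tested. Of the 211 genes listed in the window, 48 had no fragment in any library, 43 more stayed under 6 fragments in every library, and 2 of the 120 that remained, *Pla2g4e* and *Pla2g4b*, were Pla2g4 genes. The 118 flanking genes included 101 protein-coding genes, with 60 genes at lower and 58 at higher coordinates than *Pla2g4e*.

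The KO group was 3 prefrontal cortex samples of knockout mice, which the study writes as *Pla2g4e*−/−, that is homozygous. They carry the constitutive *Pla2g4e* tm2a allele, in which a LacZ cassette placed in the gene is predicted to end its transcript. The WT group was 3 prefrontal cortex samples of wild-type mice. The allele is constitutive, so no promoter limits it to a cell type, and the line is given as C57BL/6N-A tm1Brd. The strain of the WT mice and any backcross of the line are not given in the sources used here, so whether sequence beside the target differed between the groups is not known. The study calls WT mice littermates of the knockout mice in other experiments, but not where it reports these samples. Neither group received a treatment. The age of these mice, the litters they came from and the batches of the libraries are not given in the sources used here. The labels do not say that each sample of a group came from a separate animal. The *Xist* counts given below differ sharply within each group, so its libraries were not all from the same animal. The p-values measure the spread between these samples only, and part of that spread may be technical.

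A gene that is targeted in embryonic stem cells carries the chromosome of those cells with it. When the line is bred to other mice, recombination exchanges distant sequence quickly and nearby sequence slowly, so the genes beside the target tend to keep the haplotype of the stem cells (passenger genes). A cassette can also act in cis, because its promoters, splice sites and polyadenylation signals lie next to the regulatory sequence of the neighbouring genes. For these reasons the level of each neighbour, and how it varies with distance from the target, is a usual control in a knockout study. The stretch of chromosome 2 around *Pla2g4e* is dense in genes of unrelated function, among them endosomal tethering and recycling proteins, enzymes of creatine and amino acid metabolism, chromatin proteins, and neuronal proteins such as *Map1a*, which encodes a microtubule-associated protein of axons and dendrites.

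The libraries held 11792463 to 14594230 fragments assigned to genes, and 91617 to 109527 of these, or 0.749% to 0.777%, lay in the flanking genes, with overlapping ranges in KO and WT. *Xist*, the RNA that coats the inactive X chromosome, was counted at 1387 and 969 CPM (counts per 1e6 after scaling) in KO replicate 1 and WT replicate 1. It was at no more than 0.246 CPM in the other 4 libraries, so each group held 1 library high in *Xist*. Summed Y-linked expression (*Ddx3y*, *Kdm5d*, *Eif2s3y* and *Uty*) was 0 and 0.157 CPM in KO replicate 1 and WT replicate 1. It was 182 to 190 CPM in the other 4, which are the libraries with Y-linked expression named below. Leaving out replicate 1 of a group thus left a library high in *Xist* in the other group only. The labelled tissue was checked against its markers: 8 cortical excitatory neuron markers summed to 2595 to 3233 CPM in the KO group and to 3090 to 3553 CPM in the WT group, and none of them was at 0. Markers of striatal neurons were also counted, with sums of 350 to 460 CPM (KO) and 262 to 435 CPM (WT). In a bulk sample, fewer cells of a type and less RNA per cell cannot be told apart.

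The targeted gene was read first. *Pla2g4e*, a calcium-dependent N-acyltransferase of the cytosolic phospholipase A2 family (minus strand, chromosome 2, 119996893 to 120075816), was at 5.95, 8.12 and 7.97 CPM in the KO libraries and at 7.84, 11.30 and 13.19 CPM in the WT libraries. WT replicate 1 lay within the KO range, so the groups overlapped, and every KO library still held fragments of the gene. For hippocampus, the study reports that neither Western blot nor immunostaining detected Pla2g4e protein in knockout mice. Counts over all exons of a gene do not show whether its RNA makes protein, which was not tested here. The log2 fold change (KO over WT) was -0.55 (SE 0.21, limma-voom, unadjusted p = 0.0205, adjusted p = 0.635), and its unadjusted p was under 0.05 in 13 of 16 other fits, the exceptions being those without KO replicate 1, WT replicate 2 or WT replicate 3. Directions below follow the labels.

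Among the flanking genes, 0 of 118 had an adjusted p under 0.05 for KO against WT in limma-voom, as did 0 of all 19084 genes (0.0%), and the lowest adjusted p of a flanking gene was 0.635. At an unadjusted p under 0.05, 10 of the 118 genes (8.47%) were past the threshold, beside 7.82% of all genes tested. Of these 10, *Ivd*, *G630016G05Rik*, *Cdan1*, *Mga*, *Spg11*, *Stard9* and *Strc* were higher in KO (5.93% of the flanking genes, beside 4.38% of all genes), and *Ckmt1*, *Ehd4* and *Ccndbp1* were lower (2.54%, beside 3.44%). The flanking genes were thus past this threshold about as often as genes in general. The quasi-likelihood test of edgeR gave 12 genes at the unadjusted threshold (10.2%, beside 7.90% of all genes) and DESeq2 gave 7 (5.93%, beside 4.73%), again with 0 at the adjusted threshold in both.

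Values of KO and WT libraries were fully apart for 15 of the 118 genes (12.7%), beside 13% of all genes tested. In 9 of them every KO library was higher than every WT library (background 6.72%), and in 6 every KO library was lower (background 6.29%). The median log2 fold change of the flanking genes was 0.0015, and that of all genes was 0.0085. The fold change was above 0 for 60 of 118 flanking genes (50.8%) and for 51.9% of all genes. The median size of the log2 fold change without its sign was 0.17 in the flanking genes and 0.13 in all genes. Among genes with a mean of at least 1 CPM these were 0.14 and 0.11. In the adjoining 10 Mb of chromosome 2 outside the window it was 0.15 toward lower and 0.14 toward higher coordinates. The split of the 10 genes into 7 higher and 3 lower depended on the scaling, since the size factors of DESeq2 in limma-voom gave 6 higher and 4 lower and library totals gave 8 higher and 2 lower. The higher share of all genes past the threshold moved in the same way, from 56.0% to 52.2% and 71.9%. The split also depended on single libraries, with 23 genes past the unadjusted threshold without WT replicate 3 (11 higher and 12 lower, 19.5% beside 11.8% of all genes in that fit) and 4 without WT replicate 1 (3 higher and 1 lower, 3.39% beside 5.37%).

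**Figure D1:**
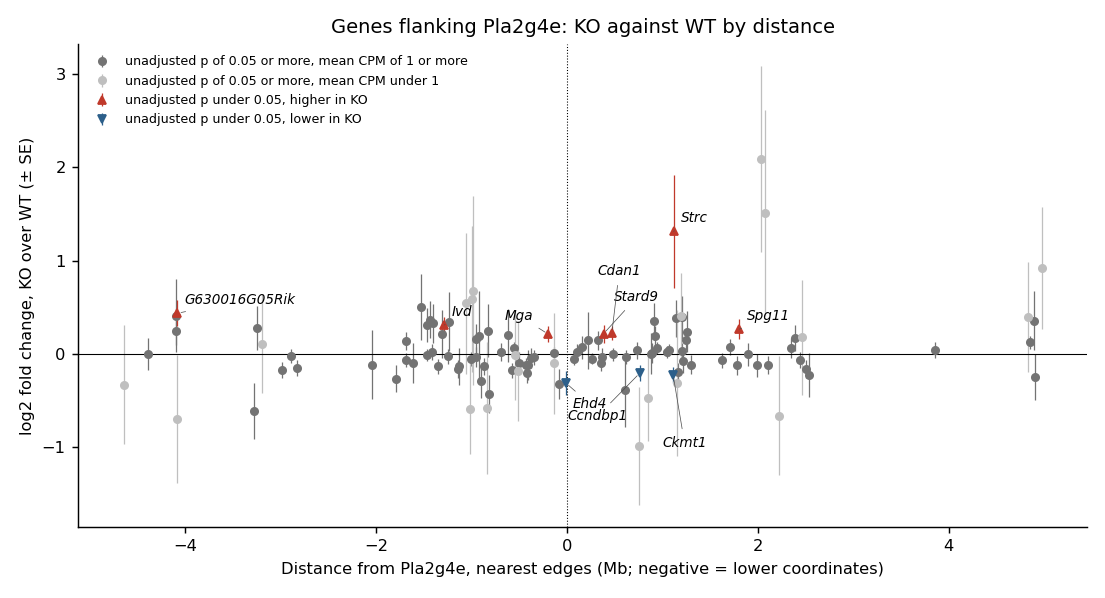
Log2 fold change of each of the 118 flanking genes (KO over WT, limma-voom, bars are ± SE) against the distance between the nearest edges of the gene and *Pla2g4e* in Mb, negative toward lower coordinates. Coloured triangles are the 10 genes with an unadjusted p under 0.05 and pale points are genes with a mean under 1 CPM. The 10 genes are spread over both sides, from *Ehd4* at 11.8 kb to *G630016G05Rik* at 4081 kb, and the widest bars belong to pale points and *Strc*.

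Start regions were read for 102 of the 118 genes from RefSeq (GRCm38.p6, an earlier build than that of the counts, so their coordinates differ from those given for the genes). For *Cdan1* the window is at the RefSeq start, whose offset from the start listed in the count tables is not that of the other 4 genes shown, so it is not the start of the counted span. Each window holds 300 bases, 250 before the transcription start and 50 after it. The 5 shown belong to the gene nearest to *Pla2g4e* (*Ehd4*), to the 3 genes of lowest p in the window (*Ivd*, *G630016G05Rik* and *Cdan1*), and to a start region that 2 flanking genes share (*Pdia3*, with *Catsper2* on the other strand). They lie at chr2:120154526-120154825 (minus strand, *Ehd4*), chr2:118861744-118862043 (plus strand, *Ivd*), chr2:120731468-120731767 (minus strand, *Cdan1*), chr2:116066975-116067274 (plus strand, *G630016G05Rik*) and chr2:121413652-121413951 (plus strand, *Pdia3*), and are written 5′ to 3′ on the gene's strand. Capitals mark CCAAT, the core of the box bound by NF-Y, and GGGCGG, the core of the GC box bound by Sp1, on either strand (ATTGG and CCGCCC when read on the other strand).
Ehd4: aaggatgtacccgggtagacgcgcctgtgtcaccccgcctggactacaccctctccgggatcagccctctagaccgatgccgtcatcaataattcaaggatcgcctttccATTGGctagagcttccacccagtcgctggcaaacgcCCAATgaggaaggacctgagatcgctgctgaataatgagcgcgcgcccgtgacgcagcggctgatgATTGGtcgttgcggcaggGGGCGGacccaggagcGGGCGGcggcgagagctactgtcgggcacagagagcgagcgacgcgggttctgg
Ivd: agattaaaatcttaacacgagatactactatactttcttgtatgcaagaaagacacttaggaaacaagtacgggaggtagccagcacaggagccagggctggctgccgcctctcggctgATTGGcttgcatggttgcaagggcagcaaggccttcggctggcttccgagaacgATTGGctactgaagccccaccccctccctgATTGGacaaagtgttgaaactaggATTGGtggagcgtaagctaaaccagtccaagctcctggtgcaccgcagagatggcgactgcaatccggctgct
Cdan1: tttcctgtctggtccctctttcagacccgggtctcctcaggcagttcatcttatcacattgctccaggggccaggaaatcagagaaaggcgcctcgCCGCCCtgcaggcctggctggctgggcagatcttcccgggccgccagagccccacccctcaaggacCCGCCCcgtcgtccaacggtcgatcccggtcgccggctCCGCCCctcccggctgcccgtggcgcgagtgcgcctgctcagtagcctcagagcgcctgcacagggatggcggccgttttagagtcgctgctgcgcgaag
G630016G05Rik: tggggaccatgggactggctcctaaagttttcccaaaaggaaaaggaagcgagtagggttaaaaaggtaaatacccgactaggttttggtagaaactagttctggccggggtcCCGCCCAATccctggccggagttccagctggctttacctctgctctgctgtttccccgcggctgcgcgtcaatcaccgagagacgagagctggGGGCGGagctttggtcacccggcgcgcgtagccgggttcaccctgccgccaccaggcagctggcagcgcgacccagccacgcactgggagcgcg
Pdia3: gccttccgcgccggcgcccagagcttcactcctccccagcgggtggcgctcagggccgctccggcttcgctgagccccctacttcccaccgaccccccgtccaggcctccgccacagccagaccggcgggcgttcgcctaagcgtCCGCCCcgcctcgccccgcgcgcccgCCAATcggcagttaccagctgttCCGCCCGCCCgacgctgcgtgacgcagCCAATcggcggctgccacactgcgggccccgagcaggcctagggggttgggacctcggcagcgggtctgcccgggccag

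The *Ehd4* window held 3 CCAAT and 2 GGGCGG matches, and the *Ivd* window held 4 CCAAT matches and no GGGCGG match. The *Cdan1* window held 3 GGGCGG matches and no CCAAT match. The *G630016G05Rik* window held 1 CCAAT match, which overlaps the first of its 2 GGGCGG matches, and the *Pdia3* window held 2 CCAAT and 3 GGGCGG matches, with a pair of the latter overlapping. None of the 5 held TATAAA. Over the 116 start regions listed for flanking genes, 37.1% held CCAAT, beside 37.4% of all 32851 start regions in the table. GGGCGG was in 63.8% of the former and 35.7% of the latter, and TATAAA was in 7.76% and 13.6%. The median GC content was 60.5% in the flanking genes and 52.7% over the whole table, which also lists start regions of many genes not tested here. These matches describe the letters of the windows and are not shown binding sites.

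*Ehd4*, which encodes an ATPase of endosomal recycling, was the nearest flanking gene, 11.8 kb from *Pla2g4e* toward lower coordinates (119919656 to 119985087, minus strand, the same strand as *Pla2g4e*). It was at 11.3, 11.1 and 11.6 CPM in KO and at 15.8, 12.4 and 13.97 CPM in WT. Every KO library was below every WT library, and the KO libraries lay closer together (SD 0.252 CPM, n = 3) than the WT libraries (SD 1.74 CPM, n = 3). The log2 fold change was -0.31 (SE 0.13, limma-voom, unadjusted p = 0.0311, adjusted p = 0.635). Its unadjusted p stayed under 0.05 in 9 of 16 other fits, and it was 0.05 or more with DESeq2, in 5 of the 6 fits that left out a library, and in the 4 libraries with Y-linked expression.

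*Sptbn5*, a spectrin gene, followed at 80.7 kb on the same side. It was at 7.23, 5.53 and 7.11 CPM in KO and at 7.68, 8.84 and 8.40 CPM in WT. Its groups did not overlap either, with a log2 fold change of -0.32 (SE 0.16, limma-voom, unadjusted p = 0.0652). Beyond it lay *Jmjd7* and *Mapkbp1*, with log2 fold changes of -0.10 and 0.01 and overlapping groups. *Jmjd7*, a lysyl hydroxylase gene next to *Pla2g4b*, was near the limit of counting at 0.312 to 0.627 CPM, and transcripts that read through from it into *Pla2g4b* are known, so its counts are uncertain. *Mga*, which encodes a transcription factor that pairs with MAX, was at 196.8 kb. It was at 99.97, 88.9 and 99.7 CPM in KO and at 74.2, 84.3 and 90.8 CPM in WT, where WT replicate 3 was above KO replicate 2. This was a log2 fold change of 0.22 (SE 0.08, limma-voom, unadjusted p = 0.0263), past the unadjusted threshold in 12 of 16 other fits.

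On the side of higher coordinates the nearest gene was *Vps39*, a subunit of the HOPS complex that tethers late endosomes and lysosomes, at 71.1 kb. It was at 85.6, 82.8 and 84.0 CPM in KO and at 82.6, 88.4 and 90.2 CPM in WT, and the groups overlapped (log2 fold change -0.05, SE 0.07). The next were *Tmem87a*, *Ganc*, *Capn3* and *Zfp106*, with log2 fold changes of 0.02, 0.07, 0.15 and -0.05. All 4 overlapped between the groups. Of the 5 nearest genes on each side, *Ehd4* and *Sptbn5*, both on the lower side, had groups that did not overlap, and 13% of all genes tested had this.

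**Figure D2:**
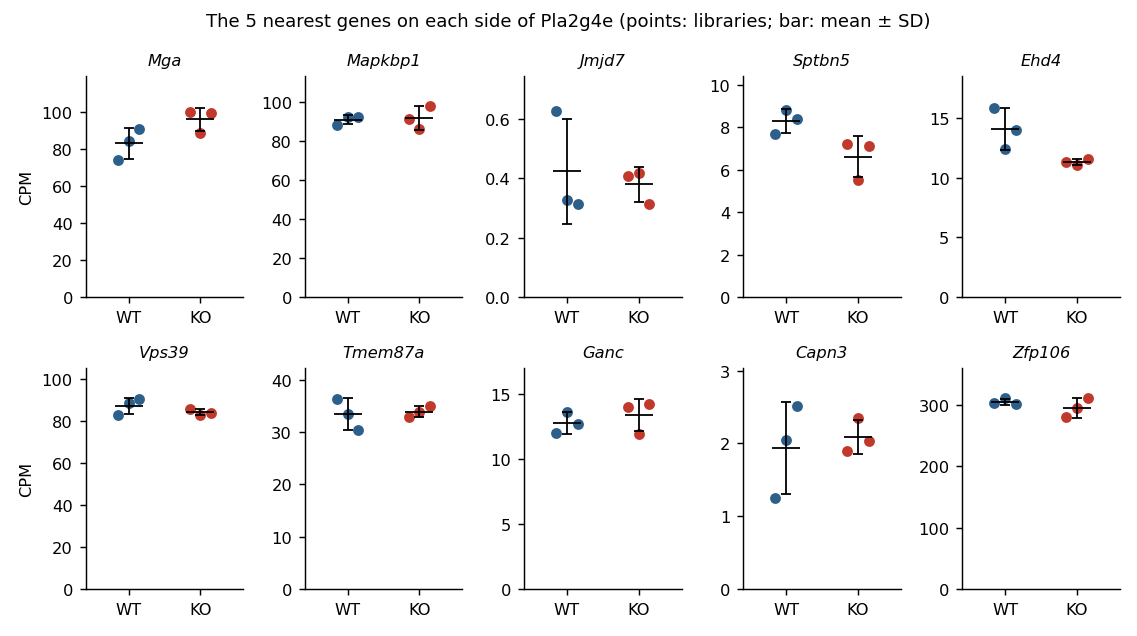
CPM in each library for the 5 nearest flanking genes on the lower side (top row, ordered toward *Pla2g4e*) and on the higher side (bottom row, ordered away from it). Points are libraries and bars are mean ± SD of 3 libraries. The WT and KO points are apart for *Ehd4* and *Sptbn5*, and they overlap in the other 8 panels.

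By distance, the share of genes with an unadjusted p under 0.05 did not fall steadily away from the target. It was 4 of 21 within 0.5 Mb (19.0%), 1 of 28 from 0.5 to 1 Mb (3.57%), 4 of 40 from 1 to 2 Mb (10%) and 1 of 29 from 2 to 5 Mb (3.45%). The 4 genes within 0.5 Mb were *Ehd4*, lower in KO, and *Mga*, *Stard9* and *Cdan1*, higher in KO. In the adjoining 10 Mb of chromosome 2 outside the window the share was 4 of 44 toward lower coordinates (9.09%) and 13 of 124 toward higher coordinates (10.5%), and on the other chromosomes it was 7.78%. The groups did not overlap for 4 genes within 0.5 Mb (19.0%), 3 from 0.5 to 1 Mb (10.7%), 5 from 1 to 2 Mb (12.5%) and 3 from 2 to 5 Mb (10.3%), beside 13% of all genes tested.

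**Figure D3:**
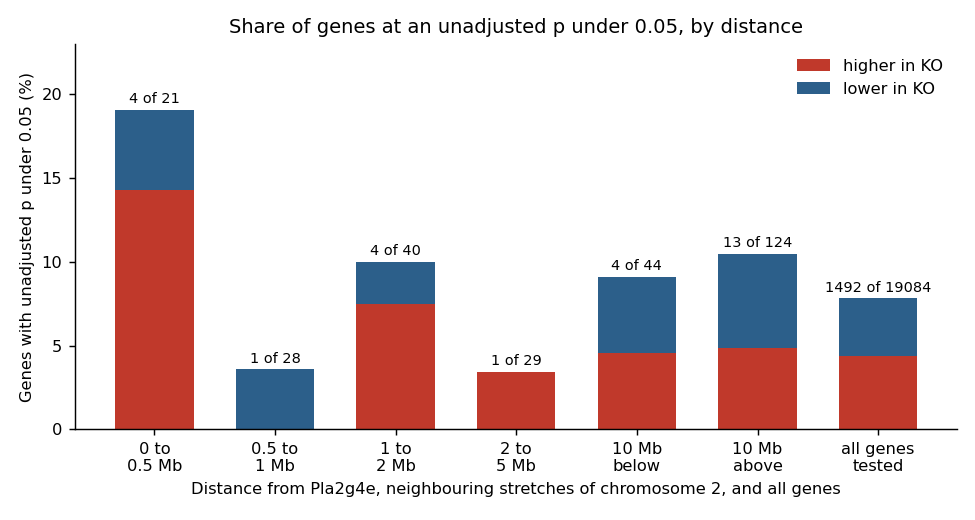
Percent of genes with an unadjusted p under 0.05 (limma-voom) in 4 distance classes of the flanking genes, in the 10 Mb of chromosome 2 beyond the window on each side, and in all genes tested. Red is higher and blue is lower in KO, and the number of genes stands above each bar. The class within 0.5 Mb is the tallest bar at 4 of 21 genes, and the next class, from 0.5 to 1 Mb, has 1 of 28.

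Signs near the target were spread unevenly between the sides, which is given as a description without a test. Within 0.5 Mb on the lower side, 8 of 10 genes had a log2 fold change below 0 (median -0.11), with *Mga* and *Mapkbp1* as the exceptions, whereas on the higher side 7 of 11 were above 0 (median 0.02). Over the whole window, 26 of 60 genes on the lower side and 34 of 58 on the higher side were above 0, with medians of -0.03 and 0.03. Only 4 of the 21 genes within 0.5 Mb were past the unadjusted threshold, so most of these signs belong to genes whose difference did not exceed the spread between libraries. Across the 118 genes, which are not independent and share the same 6 libraries, the size of the log2 fold change without its sign had a Spearman's rho of 0.23 with distance and of -0.61 with mean CPM. Over the 96 genes with a mean of at least 1 CPM these were 0.18 and -0.49.

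The 10 genes past the unadjusted threshold had different functions. *Ivd*, the mitochondrial isovaleryl-CoA dehydrogenase of leucine breakdown (118692435 to 118713390, plus strand), lay 1284 kb from *Pla2g4e* and had the lowest p of the flanking genes. It was at 84.2, 81.2 and 74.9 CPM in KO and at 58.7, 65.7 and 69.4 CPM in WT. Every KO library was above every WT library, and the fitted KO level was 24.2% above the WT level. Its log2 fold change was 0.31 (SE 0.08, limma-voom, unadjusted p = 0.00222, adjusted p = 0.635), and its unadjusted p was under 0.05 in 16 of 16 other fits, with log2 fold changes of 0.21 to 0.36. In none of these fits was its adjusted p under 0.2227.

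*Ckmt1*, the mitochondrial creatine kinase that passes phosphate from ATP to creatine, was among the most abundant flanking genes. It was at 133.8, 142.5 and 147.3 CPM in KO and at 168.1, 181.7 and 145.3 CPM in WT. WT replicate 3 lay within the KO range, and the other WT libraries were above it. The log2 fold change was -0.22 (SE 0.08, limma-voom, unadjusted p = 0.0212), past the unadjusted threshold in 12 of 16 other fits. *Gatm*, the first enzyme of creatine synthesis, had a log2 fold change of 0.06 with overlapping groups. With *Ivd* and *Ckmt1*, 2 of the 11 genes of metabolism and mitochondria in the window were past the unadjusted threshold (18.2%, beside 7.82% of all genes tested). Among the others, *Chac1*, which encodes an enzyme that degrades glutathione, was lower in all 3 KO libraries than in any WT library (2.93 to 4.30 CPM and 4.55 to 5.48 CPM, a separation found in 13% of all genes tested), with a log2 fold change of -0.43 (SE 0.20, limma-voom, unadjusted p = 0.0569).

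*Cdan1* encodes codanin-1, a partner of the histone chaperone ASF1, and stood in the list of cell division genes. It was at 39.0, 39.6 and 39.8 CPM in KO and at 33.1, 35.4 and 32.8 CPM in WT. The groups did not overlap, and the KO libraries lay within 1 CPM of each other. This was a log2 fold change of 0.23 (SE 0.08, limma-voom, unadjusted p = 0.0122), with an unadjusted p under 0.05 in 16 of 16 other fits. The span of *Cdan1* in the count tables (120546635 to 120680609, minus strand) overlaps most of *Ttbk2* on the same strand, which encodes a kinase needed for primary cilia, and reaches into the end of *Stard9* on the other strand. Fragments over exons that *Cdan1* shares with *Ttbk2* were not counted for either gene. Of the 10 genes of this list, 4 had a mean under 1 CPM. *Cdan1* alone was past the unadjusted threshold (1 of 10, beside 7.82% of all genes tested), and the other 9 were not. Among them *Tubgcp4*, of the gamma-tubulin complex, and *Haus2*, of the augmin complex, had log2 fold changes of 0.19 and -0.03, and *Wdr76* was at 0.24, all with overlapping groups.

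*Stard9*, a kinesin gene placed in the list of neuronal signalling and structure, was at 42.3, 52.3 and 46.3 CPM in KO and at 36.7, 40.4 and 43.5 CPM in WT. WT replicate 3 was above KO replicate 1, so the groups overlapped. Its log2 fold change was 0.22 (SE 0.10, limma-voom, unadjusted p = 0.0429), and the unadjusted p was under 0.05 in 11 of 16 other fits. None of the other 16 genes of this list was past the threshold, so 1 of the 17 was (5.88%, beside 7.82% of all genes tested). None of the 17 had groups that did not overlap, beside 13% of all genes tested. The fold change was below 0 for 11 of the 17 genes, with a median of -0.12. Those of lowest p among them were *Chp1*, a calcineurin-like calcium-binding protein (log2 fold change -0.17, unadjusted p = 0.0540 in limma-voom), *Spred1*, an inhibitor of Ras signalling (-0.17), and *Itpka*, the inositol trisphosphate kinase of dendritic spines (-0.20). *Disp2*, a multi-pass membrane protein, and *Ppip5k1*, an inositol pyrophosphate kinase, were at -0.13 and 0.04. Beside this list, the 8 general neuronal markers had log2 fold changes below 0 in 8 of 8 cases (median -0.15, 3 of them at an unadjusted p under 0.05) and summed to 5850 to 6607 CPM in the KO libraries, against 6566 to 7742 CPM in WT. The 8 cortical excitatory neuron markers were also below 0 in 8 of 8 cases (median -0.21, 3 of them at an unadjusted p under 0.05), and the 10 striatal markers were above 0 in 10 of 10 cases (median 0.27, 1 of them at an unadjusted p under 0.05). Markers of oligodendrocytes were above 0 in 9 of 10 cases (median 0.19, 1 of them at an unadjusted p under 0.05), those of astrocytes in 8 of 8 and those of microglia in 2 of 7, and those of the endothelium were below 0 in 6 of 6, with none of the last 3 lists holding a marker past that threshold. Choroid plexus markers were above 0 in 3 of 4 cases and blood markers in 1 of 5, with 0 past that threshold in either list. The choroid plexus markers summed to 6.03 to 7.97 CPM in KO and to 6.11 to 35.1 CPM in WT, highest in WT replicate 2. *Ttr* was at 0.251 to 0.625 CPM in KO and at 1.72 to 26.8 CPM in WT (log2 fold change -3.22). The part of cell composition in the values of the flanking genes was not tested.

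*Spg11* encodes spatacsin, a protein of lysosome reformation that is mutated in a hereditary spastic paraplegia, and lay 1808 kb from *Pla2g4e*. It was at 31.1, 33.1 and 34.1 CPM in KO and at 23.05, 27.5 and 31.6 CPM in WT. WT replicate 3 reached the KO range, and the other WT libraries were below it. The log2 fold change was 0.27 (SE 0.11, limma-voom, unadjusted p = 0.0315), and the unadjusted p was under 0.05 in 10 of 16 other fits. Together with *Ehd4* it was 1 of 2 trafficking genes of 12 past the threshold (16.7%, beside 7.82% of all genes tested), in opposite directions. *Snap23*, a SNARE of regulated exocytosis, was higher in every KO library (17.6 to 19.7 CPM) than in every WT library (16.6 to 17.637 CPM), but KO replicate 1 at 17.641 CPM and WT replicate 1 nearly met, and the log2 fold change was 0.15 (SE 0.10). *Bloc1s6*, a subunit of the BLOC-1 complex of lysosome-related organelles, was lower in every KO library (21.0 to 22.4 CPM) than in every WT library (22.5 to 25.9 CPM), with a log2 fold change of -0.16 (SE 0.10). *Vps18*, which shares the HOPS complex with *Vps39*, had a log2 fold change of -0.13 with overlapping groups. *Srp14*, of the signal recognition particle, and *Rmdn3*, which ties mitochondria to the endoplasmic reticulum, were at -0.06 and -0.05 on the log2 scale, also with overlapping groups.

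Of the 11 genes of transcription and chromatin, *Mga* alone was past the unadjusted threshold (9.09%, beside 7.82% of all genes tested). *Meis2*, a homeodomain factor of striatal and other forebrain neurons at 4101 kb, was at 287.0, 193.5 and 183.9 CPM in KO and at 201.8, 164.2 and 187.1 CPM in WT. KO replicate 1 was high and the other KO libraries lay within the WT range (log2 fold change 0.24, SE 0.14). *Ino80*, *Rtf1*, *Trp53bp1* and *Zfp106*, of chromatin remodelling, transcript elongation, DNA repair and RNA binding, had log2 fold changes of 0.02, -0.11, 0.07 and -0.05. Of the 10 genes listed under protein synthesis, folding and turnover, 0 were past the unadjusted threshold in limma-voom. Of the 8 genes of the cell surface, matrix and secreted proteins, 0 were past it as well. Among all genes tested, 7.82% were. *Eif2ak4*, the kinase GCN2 that senses amino acid shortage, did not overlap between the groups (KO 34.8 to 36.1 CPM, WT 28.0 to 34.5 CPM), with a log2 fold change of 0.14 (SE 0.09). *Ccdc32*, which was placed in the list of protein synthesis, folding and turnover, had a log2 fold change of -0.16. *Dll4*, a Notch ligand of the endothelium, had one of 0.25, and both had overlapping groups. *B2m*, the light chain of MHC class I molecules, spanned 59.5 to 82.4 CPM in KO and nearly the same range, 59.1 to 78.6 CPM, in WT.

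The other 3 genes past the unadjusted threshold stood in none of these lists. *G630016G05Rik*, a long non-coding RNA, was at 17.0, 14.3 and 12.9 CPM in KO and at 10.5, 9.99 and 12.2 CPM in WT. The gene lies 4081 kb from *Pla2g4e*. Its groups did not overlap, as in 13% of all genes tested, and the log2 fold change was 0.44 (SE 0.14, limma-voom, unadjusted p = 0.00868). It stayed under the unadjusted threshold in 15 of 16 other fits, the exception being the 4 libraries with Y-linked expression. *Ccndbp1*, which encodes a binding partner of cyclin D1, was at 35.3, 41.0 and 39.3 CPM in KO and at 44.2, 47.2 and 41.3 CPM in WT. Its groups were apart by a small margin between KO replicate 2 and WT replicate 3, and the log2 fold change was -0.20 (SE 0.09, limma-voom, unadjusted p = 0.0369), with an unadjusted p under 0.05 in 8 of 16 other fits. *Strc*, the inner ear gene of stereocilin, was at 1.28, 1.09 and 0.469 CPM in KO and at 0.157, 0.573 and 0.392 CPM in WT. KO replicate 3 lay within the WT range, and at this depth the log2 fold change of 1.32 had an SE of 0.61 (limma-voom, unadjusted p = 0.0499) and stayed under the unadjusted threshold in 6 of the 15 other fits that tested it.

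**Figure D4:**
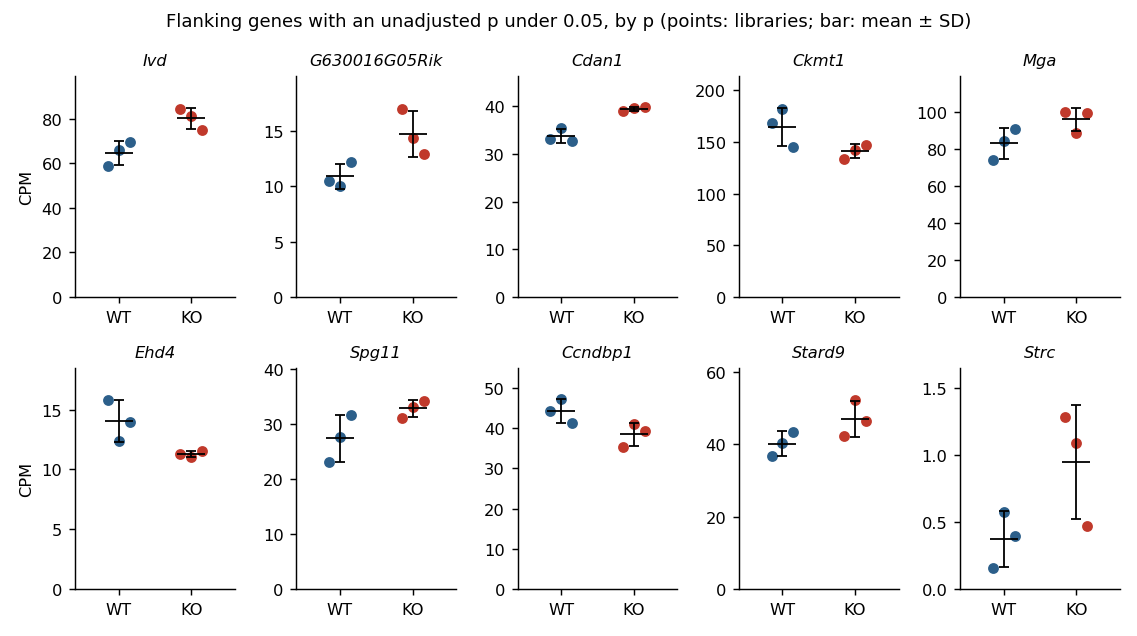
CPM in each library for the 10 flanking genes with an unadjusted p under 0.05, ordered by p. Points are libraries and bars are mean ± SD of 3 libraries. The WT and KO points do not overlap for *Ivd*, *G630016G05Rik*, *Cdan1*, *Ehd4* and *Ccndbp1*, and they overlap for the other 5.

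The 2 largest fold changes of the window belonged to thinly counted genes that did not pass the unadjusted threshold. *Duox2*, a dual oxidase gene, had 22, 4 and 2 fragments in KO and 1 in each WT library, so that 1 KO library held most of its fragments and the smallest KO value was 1 fragment above the WT values. Its fitted log2 fold change was 2.09 (SE 0.99, limma-voom, unadjusted p = 0.0567). *Duox1*, the neighbouring copy, had a log2 fold change of 1.51 (SE 1.10). Among the 22 flanking genes with a mean under 1 CPM, 1 was past the unadjusted threshold (4.55%, beside 7.82% of all genes tested at any level). Among the 96 with a mean of at least 1 CPM, 9 were (9.38%, beside 8.79% of all genes at that level). The duplicated genes *Mfap1a* and *Mfap1b*, which encode the same spliceosomal protein, are also uncertain because fragments that fit both copies were not counted. They had log2 fold changes of 0.15 and -0.07.

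Pairs of flanking genes that start close together on opposite strands did not as a rule share a direction, whereas most other pairs overlapping on opposite strands did. These counts were not tested. In the spans of the count tables, 14 pairs started within 1 kb of each other on opposite strands, and the fold changes had the same sign in 7 of the 14. The long non-coding RNA *2700033N17Rik* starts 235 bases from *G630016G05Rik* and had a log2 fold change of 0.41 (SE 0.39), close to that of its partner. *Catsper2*, a sperm calcium channel gene, starts 17 bases from *Pdia3*, which encodes a disulfide isomerase of the endoplasmic reticulum, and their 300-base windows share 209 bases. *Catsper2* was at 6.42, 5.44 and 5.23 CPM in KO and at 4.78, 3.44 and 5.02 CPM in WT (log2 fold change 0.38, SE 0.20, limma-voom, unadjusted p = 0.0761). *Pdia3* was at 155.1, 154.9 and 154.3 CPM in KO and at 209.2, 177.9 and 149.5 CPM in WT (log2 fold change -0.20, SE 0.10, limma-voom, unadjusted p = 0.0728). The values of the pair thus lay in opposite directions, and neither gene was past the threshold. Another 12 pairs overlapped on opposite strands (9 with the same sign) and 4 on the same strand (2 with the same sign). In the former, the counting used strand, so the fragments of each gene could be told apart. *Strc* and *Ckmt1* overlap in this way at their ends, with log2 fold changes of 1.32 and -0.22.

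Compared per length, as mean RPKM (CPM per kilobase of exon) over the 6 libraries, the flanking genes had a median of 3.50 RPKM, beside 3.23 RPKM over all genes tested. *Map1a* was the highest at 144 RPKM, followed by *Rasgrp1*, a calcium-responsive activator of Ras, at 94.4 RPKM, *B2m* at 80.4 RPKM, *Ckmt1* at 61.3 RPKM, the long non-coding RNA *1700020I14Rik* at 60.5 RPKM and *Itpka* at 58.8 RPKM. Of these 6, *Ckmt1* alone was past the unadjusted threshold. *Map1a* was at 1688, 1746 and 1847 CPM in KO and at 1601, 1821 and 1778 CPM in WT, and the groups overlapped (log2 fold change 0.02, SE 0.07). *Rasgrp1* was at 465.7, 517.9 and 518.6 CPM in KO and at 576.1, 607.2 and 485.1 CPM in WT, where WT replicate 3 lay within the KO range (log2 fold change -0.15, SE 0.08).

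The share of flanking genes past the unadjusted threshold was set beside that of all genes in every fit that was run. It was above the share of all genes in 15 of 17 fits and below it without KO replicate 2 and without WT replicate 1. With summed Y-linked expression as a covariate it was 14.4% (17 genes), beside 10.6% of all genes. In the 4 libraries with Y-linked expression, a comparison added after the data had been seen, it was 4.24% (5 genes), beside 3.67%. All these fits share libraries and are not independent of each other.

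**Figure D5:**
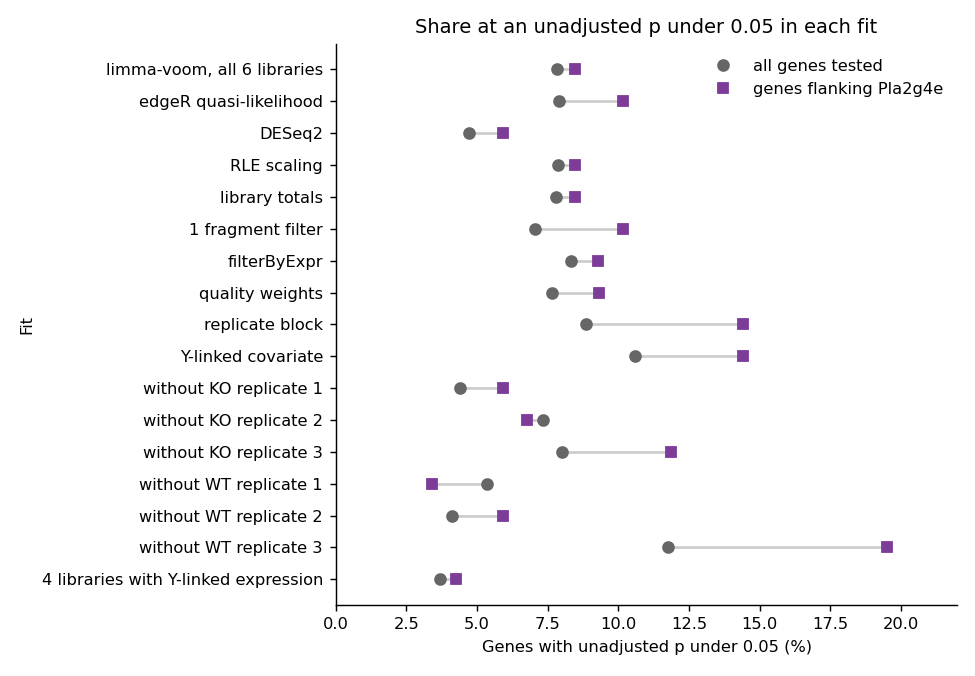
Percent of genes with an unadjusted p under 0.05 in each fit, for all genes tested (grey circles) and for the flanking genes (purple squares). The squares move with the circles from 3.39% to 19.5%, and the lowest and highest squares are the fits without WT replicate 1 and without WT replicate 3.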

How the data were processed

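Polyadenylated RNA of mouse prefrontal cortex was measured in strand-specific libraries of 3 KO and 3 WT samples, grouped by title. The deposited values are raw counts of fragments per gene, which the authors made with STAR 2.7.9a and featureCounts 1.6.0 (paired, reverse-stranded, exons, per the file headers on GENCODE M31 of GRCm39, whereas the study's methods name an earlier build). Fragments that map to several places or fall in several genes were not counted. Coordinates are those of the files. Symbols matched 52073 of 56923 genes.

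Genes with at least 6 fragments in at least 1 library (19084) were scaled by TMM in edgeR 4.0.16 and tested with voom and limma 3.58.1 (R 4.3.3), two-sided, without covariates, with Benjamini-Hochberg adjustment over all of them and a threshold of 0.05. The same fit gave every fold change and SE. The scripts were tested on simulated data. Totals of 11792463 to 14594230 fragments limit the precision of thinly counted genes, and fragments carry no molecular identifiers.

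The flanking genes, the lists by function and the distance classes were chosen with earlier results of these data known. Genes were named when they lay among the nearest (within 0.5 Mb), had an unadjusted p under 0.05, were among the 10 of lowest p without overlap of the groups, were among the 10 of highest CPM, or were among the 4 most abundant of a list. Others named (*Duox1*, *Mfap1a*, *Mfap1b*, *2700033N17Rik*, *Vps18*, *Chp1*, *Eif2ak4* and *Ino80*) and the start regions shown were chosen after their values were seen. Alternatives were the edgeR quasi-likelihood test, DESeq2 1.42.0, other scalings and filters, weights for library quality, replicate number as a block, Y-linked expression as a covariate, leaving out each library, and narrower windows.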

Additional observations from a re-analysis of the deposited data

How the results depend on the processing

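No flanking gene passed the adjusted threshold in any of the 17 fits. Over all genes, 0 passed it except with DESeq2 (1 gene), with Y-linked expression as a covariate (23), in the 4 libraries with Y-linked expression (2, a fit chosen after seeing the data) and when a library was left out (0 to 1). The count of genes at an unadjusted p under 0.05, 1492, was 902 with DESeq2, 701 in those 4 libraries, and 788 to 2247 when a library was left out. The count of flanking genes, 10, was 17 with the covariate, 5 in the 4 libraries, 5 within 1 Mb and 4 to 23 when a library was left out. With the replicate number as a block it was 17 (14.4%, beside 8.87% of all genes), but the numbers are not known to pair the samples (correlations of same-numbered deviations 0.27, 0.06 and -0.02). The median log2 fold change of the flanking genes, 0.0015, was 0.027 with library totals (all genes 0.034), -0.029 within 1 Mb, and -0.0059 to 0.028 when a library was left out. The cause of these shifts was not tested.

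Of 877 other fitted fold changes for 55 named genes, 832 kept their direction. The 45 that turned belong to 19 genes, none of them among the 10 past the unadjusted threshold in limma-voom with all libraries. When a library was left out, the log2 fold change ranged from -0.14 to 0.096 for *B2m*, -0.14 to 0.36 for *Capn3*, -0.14 to 0.011 for *Casc4*, -0.0017 to 0.19 for *Gatm*, -0.068 to 0.0098 for *Haus2*, -0.27 to 0.20 for *Jmjd7*, -0.30 to 0.035 for *Ltk*, -0.033 to 0.060 for *Map1a*, -0.036 to 0.055 for *Mapkbp1*, -0.12 to 0.033 for *Rpap1*, -0.015 to 0.084 for *Serf2*, -0.12 to 0.019 for *Slc30a4*, -0.47 to 0.20 for *Thbs1*, -0.035 to 0.081 for *Tmem62*, -0.047 to 0.089 for *Tmem87a*, -0.053 to 0.030 for *Ttbk2*, -0.095 to 0.050 for *Tyro3* and -0.098 to 0.029 for *Ubr1*. In the 4 libraries with Y-linked expression it was 0.081 for *Tyro3*, -0.0072 for *Mapkbp1*, 0.15 for *Jmjd7*, -0.0061 for *Ganc*, -0.060 for *Capn3*, -0.025 for *Tmem62*, -0.0027 for *Map1a* and 0.011 for *Casc4*. For *Ttbk2* it was -0.0024 with DESeq2, -0.0046 with its size factors and -0.0027 with filterByExpr, and for *B2m* 0.023 with library totals and 0.0040 with a filter of 1 fragment.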
